A study of Bos taurus with 40 samples.

Results

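The genes described here encode the complement components and the coagulation factors of blood plasma, with their closest activators, inhibitors and cofactors. Members were the rows of the count tables whose symbol was among 45 symbols chosen by function, and 44 of the 45 were found among the 13570 genes of the tables. PROZ, which encodes protein Z, is not analysed here. The study sequenced RNA of 10 Korean cattle, 5 female (cows) and 5 male (bulls), slaughtered at an age of more than 22 months. Each animal gave 1 library of liver, 1 of abdominal adipose tissue (fat), 1 of longissimus dorsi muscle and 1 of pituitary gland, 40 in all. By the labels, each of the 8 groups of sex and tissue therefore held 5 animals, and the same 10 animals supplied each tissue. A liver library described below went against its label, so the liver groups are 5 and 5 by label only. The labels name no treatment, allele or agent, and give no sex-specific age, feed or cycle stage.

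Complement is a cascade of plasma proteases and opsonins that marks microbes and damaged cells. The classical pathway begins with C1q and the C1r and C1s proteases, the lectin pathway with mannose-binding lectin and its proteases, and the alternative pathway with factors B and D, and all meet at C3 and end in the membrane attack complex. Coagulation is a related cascade in which tissue factor and the vitamin K dependent proteases generate thrombin, thrombin cleaves fibrinogen, and factor XIII crosslinks the fibrin, while plasmin dissolves it. Hepatocytes are known to secrete most of these proteins into the blood, macrophages are a known source of C1q, and endothelial cells carry or release von Willebrand factor, thrombomodulin and tissue factor pathway inhibitor.

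The libraries held 5173092 to 19165864 reads on genes (median 10005607). Levels are given in CPM, a gene's reads scaled to a common library size, and 3 reads correspond to 0.132 to 0.793 CPM depending on the library. The CPM were scaled by trimmed mean of M values (TMM) factors, means carry the SD over 10 animals of a tissue unless stated otherwise, and because CPM is not divided by transcript length, a higher CPM or share of reads of one gene than of another is not a higher number of transcripts. The libraries carried the markers of their labelled tissue: 7 hepatocyte markers summed to 102365 to 215496 CPM in liver and to at most 1875 elsewhere, 3 adipocyte markers to 3756 to 18039 in fat and at most 479 elsewhere, 5 skeletal muscle markers to 96703 to 173803 in muscle and at most 1458 elsewhere, and 7 pituitary markers to 82770.5 to 286052 in pituitary gland and at most 387 elsewhere. The liver library labelled bull 3 went against its label, with 1401 CPM of XIST and 0 reads on 3 Y-linked genes, whereas the other 4 bull livers had at most 0.936 CPM of XIST and 487 to 1265 reads on those Y-linked genes, and the cow livers 681 to 2179 CPM and at most 1 read. The members called, their summed level in liver and the values of PROS1 and MASP2 between the sexes are therefore given with and without it. The fat library of bull 5 was the least like the other fat libraries. It had 28 reads on the Y-linked genes, against 454 to 722 in the other 4 bull fat libraries and at most 3 in cow fat, and 1.39 CPM of XIST, against at most 0.724 CPM in those bulls and at least 316 CPM in the cows. The members called and the values of THBD and MASP2 between the sexes are also given without it.

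The 44 members summed to 25.9 ± 5.89% of the TMM-adjusted library size in liver, from 16.8 to 33.0% across animals. That size is the reads on genes times the TMM factor, so the value is not a share of the reads. The same share was 0.522 ± 0.18% in fat and 0.113 ± 0.0250% in muscle, and 0.0882 ± 0.0133% for pituitary gland. Without TMM scaling the liver share was 19.8 ± 3.28% of the reads counted on genes. Within liver, the fibrinogen chains FGA, FGB and FGG and the central complement component C3 held 74.5 ± 5.21% of the reads on members, from 64.1 to 80.9% across the 10 animals. In such bulk tissue, fewer cells of a type and less RNA per cell cannot be told apart.

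By mean level, 38 of the 44 members were highest in liver, 3 in fat (VWF, F13A1 and THBD), 3 in pituitary gland (C7, TFPI and F3) and 0 in muscle. Tissues were compared with edgeR's quasi-likelihood test on all 40 libraries, with tissue and sex in the model, and a gene was called at a Benjamini-Hochberg adjusted p under 0.05 over 13148 tested genes and at least 2-fold. Of the 44 members, 35 were called higher in liver than in fat, where 21.2% of all tested genes were, and 5 were called lower, where 26.2% were. Against muscle 38 members were called higher in liver (21.6% of all tested genes) and 4 lower (24.8%), and against pituitary gland 38 were called higher (21.1%) and 4 lower (27.1%). The median log2 fold change of the 44 members was 8.18 for liver over fat, 10.04 for liver over muscle and 9.02 for liver over pituitary gland, beside -0.13, -0.11 and -0.12 over all tested genes.

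**Figure D1:**
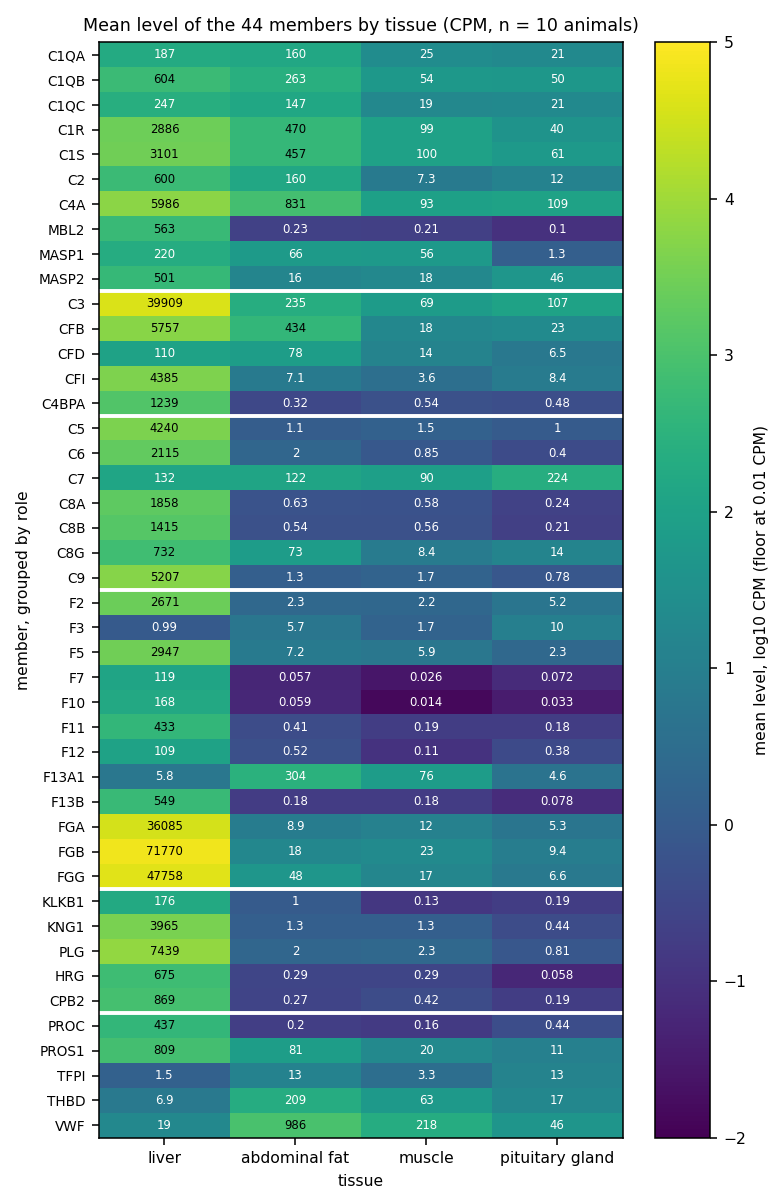
Mean level of each of the 44 members (rows, grouped by role) in liver, abdominal fat, muscle and pituitary gland (columns), as the colour on a log10 CPM scale with the mean in CPM printed in each cell (n = 10 animals per tissue). Liver is the highest column for 38 members, and C7, F3, F13A1, TFPI, THBD and VWF have their highest mean elsewhere; C3 reaches 39909 CPM and FGB 71770.2 CPM in liver.

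The members that start the classical pathway were present in each of the 4 tissues. C1QA, C1QB and C1QC, the chains of C1q, averaged 187 ± 83.6 CPM, 604 ± 190.2 CPM and 247 ± 88.8 CPM in liver and 160.3 ± 101 CPM, 263 ± 156 CPM and 147 ± 106 CPM in fat. C1QB was called higher in liver than in fat, with a log2 fold change of 1.17 (SE 0.31) and an adjusted p of 0.00110, whereas C1QA and C1QC, at 0.21 (SE 0.32) and 0.74 (SE 0.32), were not called. Thus for C1QA the fat level was 85.5% of the liver level, and the libraries of both tissues overlapped widely.

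C1R and C1S, the proteases bound to C1q, averaged 2886 ± 511 CPM and 3101 ± 557 CPM in liver, and the fat levels were 16.3% and 14.7% of these. C4A, the component that C1s cleaves next, averaged 5986 ± 1566 CPM (3629.8 to 7567 CPM, median 6220.1) in liver, 831 ± 491 CPM in fat, 92.8 ± 29.9 CPM in muscle and 109 ± 56.3 CPM in pituitary gland. C2, the protease of the classical convertase, fell from 599.7 ± 50.3 CPM in liver to 160.3 ± 72.3 CPM in fat, 7.27 ± 8.13 CPM in muscle and 12.4 ± 4.88 CPM in pituitary gland. Each of these 4 genes was called higher in liver than in each other tissue, and higher in fat than in muscle and pituitary gland. The C4 gene occurs in near-identical copies in many mammals, and the tables keep reads with several alignments apart from the gene counts, so the C4A level is uncertain. CFB and C2 are neighbours in the RefSeq annotation of ARS-UCD2.0, as are C1R and C1S, and reads of overlapping or antisense transcripts cannot be told apart without strand.

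In the lectin pathway, MBL2, mannose-binding lectin itself, was at 563 ± 172 CPM in liver and had 1 to 7 reads per library in fat, 0 to 5 in muscle and 0 to 5 in pituitary gland. Its proteases were spread more widely. MASP1 averaged 220.1 ± 42.0 CPM in liver, 66.4 ± 15.7 CPM in fat, 56.4 ± 36.6 CPM in muscle and 1.33 ± 0.649 CPM in pituitary gland, and it was called higher in muscle than in pituitary gland with a log2 fold change of 5.34, SE 0.27 and an adjusted p of 5.32e-19. MASP2, the protease that cleaves C4 and C2 in this pathway, had the other order outside liver: 46.2 ± 11.96 CPM in pituitary gland, 18.3 ± 7.99 CPM in muscle and 15.6 ± 7.13 CPM in fat, beside 501 ± 149 CPM in liver. It was called lower in fat than in pituitary gland (log2 fold change -1.62, SE 0.20, adjusted p = 1.69e-09), while fat and muscle did not differ at the threshold (adjusted p = 0.246).

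At the centre of the cascade, C3 averaged 39909 ± 8848 CPM in liver (27625 to 55348 CPM, median 41189), 235 ± 116 CPM in fat, 68.9 ± 34.5 CPM in muscle and 107 ± 34.0 CPM in pituitary gland. CFB, the protease of the alternative pathway convertase, averaged 5757 ± 1116 CPM in liver and 434 ± 218 CPM in fat, 7.53% of the liver level, and then 17.9 ± 17.4 CPM in muscle and 22.5 ± 5.69 CPM in pituitary gland. CFD, the factor that cleaves factor B and is known in rodents as the adipocyte product adipsin, did not have its higher mean in fat. It averaged 110.0 ± 57.3 CPM in liver and 78.4 ± 75.3 CPM in fat (log2 fold change of liver over fat 0.49, SE 0.34, adjusted p = 0.216), with 13.6 ± 6.09 CPM in muscle and 6.46 ± 1.97 CPM in pituitary gland.

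The regulators in the list were strongly concentrated in liver. CFI, the protease that degrades C3b and C4b, averaged 4385 ± 997 CPM in liver and 7.10 ± 3.52 CPM, 3.55 ± 2.65 CPM and 8.36 ± 3.45 CPM in fat, muscle and pituitary gland, and was called higher in liver than in each. C4BPA, the alpha chain of C4b-binding protein, averaged 1239 ± 189 CPM in liver and between 0.320 and 0.537 CPM elsewhere. CFI was called higher in fat than in muscle only with the animal in the model (log2 fold change 1.02, adjusted p = 0.00586), its value without that term lying just under 2-fold at 0.99.

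Of the terminal components, C5, C6, C8A, C8B and C9 had levels of 1415 to 5207 CPM in liver and of at most 1.998 CPM in the mean of any other tissue. C8G, the lipocalin-like gamma chain of C8, averaged 732 ± 323 CPM in liver and 73.0 ± 92.6 CPM in fat, where libraries ran from 10.2 to 289 CPM, with 8.41 ± 4.44 CPM in muscle and 14.5 ± 6.05 CPM in pituitary gland. C6, C7 and C9 lie close together on 1 chromosome in the RefSeq annotation of ARS-UCD2.0, yet C6 and C9 were called more than 2-fold higher in liver than in the other tissues and C7 was not called between liver and any of them.

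Among the clotting proteases and cofactors, F2 (prothrombin) averaged 2671 ± 629 CPM and F5 (factor V, the cofactor of factor Xa) 2947 ± 614 CPM in liver. Outside liver F2 averaged 5.18 ± 1.57 CPM in pituitary gland, 2.33 ± 1.798 CPM in fat and 2.20 ± 0.869 CPM in muscle, and was called lower in fat and in muscle than in pituitary gland. F7 and F10, adjacent genes for the proteases of the tissue factor complex and of prothrombinase, averaged 119 ± 39.8 CPM and 168 ± 52.4 CPM in liver, and no library of another tissue had more than 3 reads on F7 or 2 on F10. F11 and F12, of the contact pathway, averaged 433 ± 158 CPM and 109 ± 37.3 CPM in liver. F13B, the carrier subunit of factor XIII, averaged 549 ± 139 CPM in liver and at most 0.179 CPM elsewhere, in contrast to the catalytic subunit F13A1 described further on.

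The fibrinogen chains, cleaved by thrombin to fibrin, were called higher in liver than in each other tissue. In liver FGA averaged 36085 ± 12503 CPM (15181 to 54115 CPM, median 38587), FGB 71770.2 ± 29540 CPM (35589 to 132581 CPM, median 60511) and FGG 47758 ± 19091 CPM (18391 to 82650.1 CPM, median 48308). The highest liver had 3.73 times the FGB level of the lowest. PLG, the zymogen of plasmin, averaged 7439 ± 1366 CPM (5400.2 to 9928 CPM, median 7116) in liver and 2.33 ± 1.504 CPM or less elsewhere.

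KNG1 (kininogen) averaged 3965 ± 796 CPM in liver, CPB2 (the fibrinolysis inhibitor TAFI) 869 ± 229.5 CPM, HRG (histidine-rich glycoprotein) 675 ± 335 CPM and KLKB1 (plasma prekallikrein) 176 ± 49.0 CPM. These 4 and PLG were called higher in liver than in each other tissue. Of the anticoagulants, PROC (protein C) averaged 437 ± 160.2 CPM in liver and at most 0.440 CPM elsewhere, whereas its cofactor PROS1 (protein S) averaged 809 ± 201 CPM in liver, 81.0 ± 38.8 CPM in fat, 19.9 ± 12.5 CPM in muscle and 11.1 ± 3.74 CPM in pituitary gland.

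The 38 liver-highest members differed widely in how much of their liver level was left in the other tissues. ALB, the albumin gene and a hepatocyte marker, had in fat 0.0307% of its liver level, in muscle 0.0329% and in pituitary gland 0.0144%. Other hepatocyte markers did not all share these values, and the classes below refer to ALB alone. In fat CYP2E1, SERPINA1 and AHSG had 0.0306 to 0.0374%, but TTR 0.231%, TF 2.14% and APOA1 42.9%. In muscle all but APOA1 (2.82%) had 0.0275 to 0.0488%. In pituitary gland CYP2E1 had 0.00977%, AHSG 0.0385%, TF 0.101%, TTR 0.210%, SERPINA1 0.573% and APOA1 4.56%. In fat 16 of the 38 members lay within 2-fold of the ALB percentage and 22 lay more than 2-fold above it, 16 of them more than 10-fold above. In muscle 18 lay within 2-fold, 19 above and 1 below, F10, and in pituitary gland 15 lay within 2-fold and 23 above. In muscle F10 had 1 read in 1 library, and F7, counted within 2-fold, had 3 reads in 1 library. The 12 members that stayed within 2-fold of ALB in all 3 tissues were MBL2, C5, C8A, C8B, C9, F13B, FGA, FGB, KNG1, PLG, HRG and CPB2. Of these, MBL2, C8A, C8B, F13B, HRG and CPB2 averaged at most 0.627 CPM in any tissue outside liver. That is within or below the range of the 3-read floor (0.132 to 0.793 CPM), so their place in the band is uncertain. The 12 members that stayed more than 10-fold above it in all 3 tissues were C1QA, C1QB, C1QC, C1R, C1S, C2, C4A, MASP1, MASP2, CFD, C8G and PROS1.

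**Figure D2:**
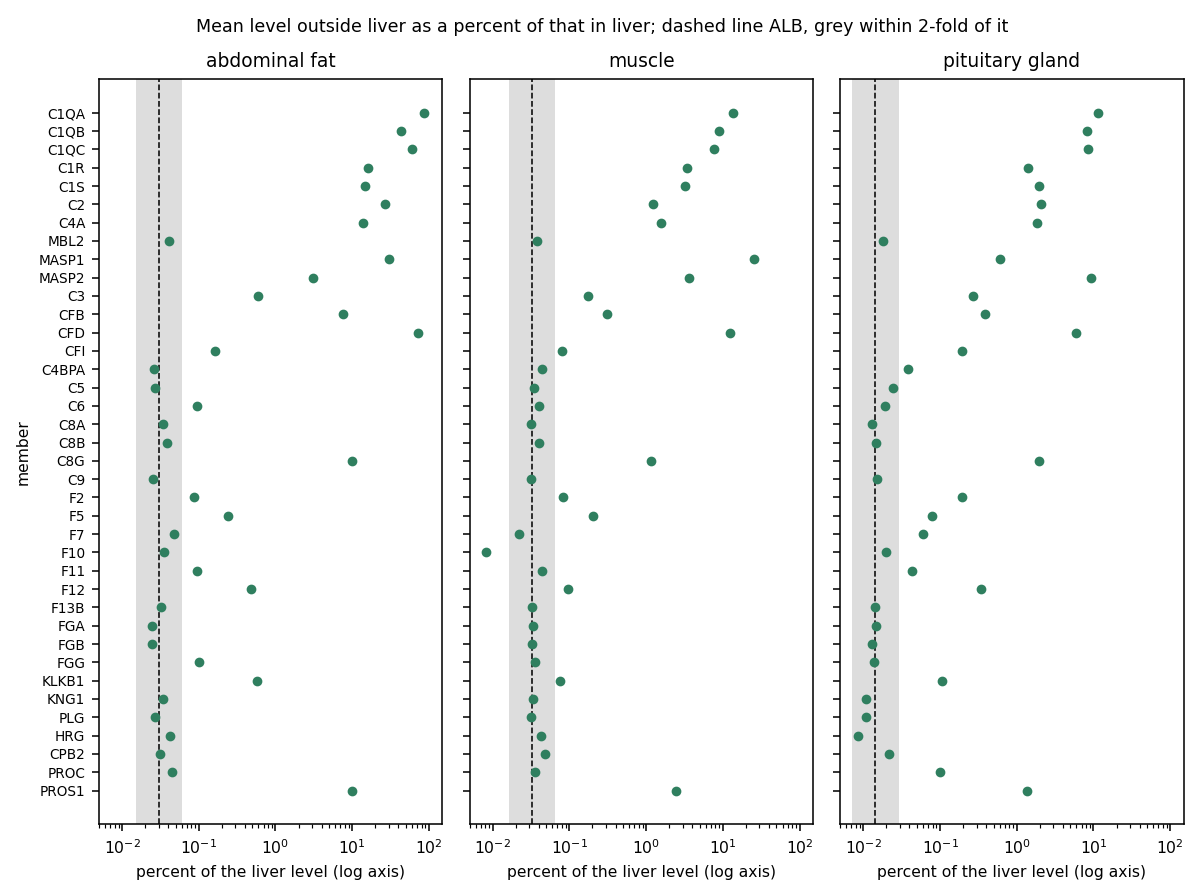
Mean level of each of the 38 members highest in liver, as a percent of its own mean liver level (horizontal log axis), in abdominal fat, muscle and pituitary gland. The dashed line is the ALB percentage, 0.0307, 0.0329 and 0.0144%, and the grey band is within 2-fold of it; FGA, FGB, PLG and C9 lie in the band in each panel, and the C1q chains lie at 7.59% or more.

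FGA, FGB, PLG and C9 also stayed near ALB in most single libraries. The FGA percentage was 0.536 to 1.64 times the ALB percentage in the 10 fat libraries, 0.6103 to 1.75 times in the 10 muscle libraries and 0.644 to 1.51 times in the 10 pituitary libraries. For FGB 9 of 10 fat, 9 of 10 muscle and 10 of 10 pituitary libraries lay within 2-fold of ALB, while ALB itself ran from 8.97 to 105.0 CPM in fat, 3.44 to 83.4 CPM in muscle and 10.997 to 22.4 CPM in pituitary gland. The calls of these genes between fat, muscle and pituitary gland stand beside that spread of ALB, and its part in them was not tested.

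Of the fibrinogen chains FGG, in fat, lay further above ALB, at 1.15 to 14.7 times its percentage, with 7 of 10 fat libraries more than 2-fold above. In liver FGA, FGB and FGG held 23.6 ± 4.16%, 46.0 ± 4.91% and 30.4 ± 4.30% of the reads on the 3 chains, in muscle 23.1 ± 3.95%, 46.0 ± 8.19% and 30.9 ± 9.26%, and in pituitary gland 24.9 ± 4.30%, 44.03 ± 3.57% and 31.0 ± 4.36%. In fat the shares were 12.8 ± 6.69%, 24.5 ± 11.5% and 62.7 ± 17.6%, and FGG ranged from 39.0 to 90.5% over the fat libraries. FGG held the most reads of the chains in 10 of 10 fat libraries, against 0 of 10 liver, 1 of 10 muscle and 0 of 10 pituitary libraries, where FGB was otherwise the largest. Its mean level in fat was 48.1 ± 28.8 CPM, 0.101% of the liver level, whereas FGA and FGB in fat were at 0.0246% and 0.0244%. The fat libraries held 272 to 1951 reads on the 3 chains, and these proportions are a description with no test.

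The chains of C8 came apart more widely. C8G held 18.2 ± 7.57% of the reads on C8A, C8B and C8G in liver, but 96.7 ± 1.65% in pituitary gland, 95.8 ± 6.97% in fat and 86.9 ± 8.24% in muscle. C8A and C8B, adjacent genes, had few reads outside liver, with 0 to 7 and 0 to 8 reads per pituitary library, whereas C8G had 62 to 498. Of the C1q chains, C1QB held 58.7 ± 6.51%, 46.1 ± 9.11%, 54.5 ± 9.21% and 54.3 ± 6.77% of the C1q reads in liver, fat, muscle and pituitary gland. C1R held 48.2 ± 4.88% of the reads on C1R and C1S in liver, 48.7 ± 6.22% in muscle, 50.1 ± 7.29% in fat and 39.7 ± 5.37% in pituitary gland.

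VWF and THBD, of the vessel wall, were lowest in liver and highest in fat. VWF, the platelet-adhesion protein stored in endothelial cells, ran from 670.1 over a median of 895 to 1381 CPM in fat, from 117 to 284 CPM in muscle, from 19.8 to 80.2 CPM in pituitary gland and from 5.195 to 35.8 CPM in liver. No fat library overlapped with a library of another tissue, and no muscle library overlapped with a liver or pituitary library. On the log2 scale liver over fat was -5.71 (SE 0.26) with an adjusted p of 7.78e-20, and fat over muscle 2.19 (SE 0.26) with an adjusted p of 3.03e-09.

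THBD, thrombomodulin, the thrombin receptor that activates protein C, ran from 48.9 to 757 CPM in fat with a median of 122, from 34.8 to 146 CPM in muscle, 8.72 to 32.3 CPM in pituitary gland and 3.01 to 11.1 CPM in liver. Each fat library lay above each liver library, and fat and muscle libraries overlapped. THBD had a log2 fold change of -4.81 (SE 0.35) for liver over fat and 1.60 (SE 0.35) for fat over muscle (adjusted p = 1.50e-13 and 2.21e-04). For liver over pituitary gland it was -1.28 (SE 0.35), and -0.995 without cow 5, which is just under 2-fold. The 6 endothelial markers measured were also summed: they reached 1056 to 1843 CPM in fat, 646 to 1129 in muscle, 459 to 1027 in liver and 177 to 306 in pituitary gland, and their part in the VWF and THBD levels was not tested.

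TFPI, the inhibitor of the tissue factor complex, had 4.04 to 35.2 CPM, median 10.96, in pituitary gland and 1.799 to 31.6 CPM, median 10.9, in fat, beside 0.591 to 12.97 CPM in muscle and 0.684 to 4.30 CPM in liver. Pituitary gland and fat could not be ordered, with a log2 fold change of fat over pituitary gland of 0.00 (SE 0.43). Both were called above liver, at -3.17 (SE 0.45) and -3.17 (SE 0.45) for liver over fat and over pituitary gland. The call of TFPI between liver and muscle, -1.19 (SE 0.46) with adjusted p = 0.029997, was lost with the animal in the model (-0.96, under 2-fold), with RLE factors (-1.07, adjusted p = 0.0552), and without cow 1 (-0.70, adjusted p = 0.202), cow 2 (adjusted p = 0.0514) or cow 3 (adjusted p = 0.0635).

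F3, tissue factor, the cell-bound starter of coagulation, was a low transcript, with 2.07 to 30.3 CPM, median 8.75, in pituitary gland, 1.64 to 11.9 CPM, median 5.83, in fat, 0.525 to 3.17 CPM in muscle and 0 to 1.94 CPM in liver. The liver libraries held 0 to 24 reads and the pituitary libraries 41 to 465, and the highest pituitary value was that of bull 5. Liver was called below fat and pituitary gland (-2.47, SE 0.40 and -3.33, SE 0.40 on the log2 scale), while liver and muscle did not differ at the threshold (adjusted p = 0.131), and the difference of fat from pituitary gland was under 2-fold.

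F13A1, the transglutaminase that crosslinks fibrin and that macrophages and platelets are known to carry, had 43.5 to 776 CPM, median 282, in fat and 21.0 to 202 CPM, median 64.0, in muscle. Liver had 3.51 to 7.66 CPM and pituitary gland 3.35 to 5.94 CPM, both below each fat and each muscle library. Its log2 fold change was -5.71 (SE 0.34) for liver over fat and 2.05 (SE 0.33) for fat over muscle (adjusted p = 2.68e-16 and 1.96e-06). Liver and pituitary gland were not called apart for F13A1 (log2 fold change 0.34, SE 0.34, adjusted p = 0.404). The 6 macrophage markers measured of 8 listed summed to 733 to 1879 CPM in liver, 438 to 1340.1 in fat, 59.5 to 365 in muscle and 72.1 to 248 in pituitary gland, and their part in the F13A1 level was not tested.

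C7, a terminal component, had the smallest ratio between its highest and lowest tissue mean of the 44 members. Its level was 144 to 305 CPM, median 228, in pituitary gland and 74.8 to 218 CPM, median 132, in liver. In fat it was 18.7 to 209.9 CPM, median 111, and in muscle 33.8 to 146 CPM, median 86.7. The ranges of all 4 tissues overlapped. Pituitary gland was called above muscle (-1.31, SE 0.28 for muscle over pituitary gland, adjusted p = 8.50e-05). Against fat the difference was -0.93 (SE 0.28), just under 2-fold, and -1.01 with the animal in the model, which is called (adjusted p = 1.67e-04). Liver, fat and muscle were not called apart for C7.

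**Figure D3:**
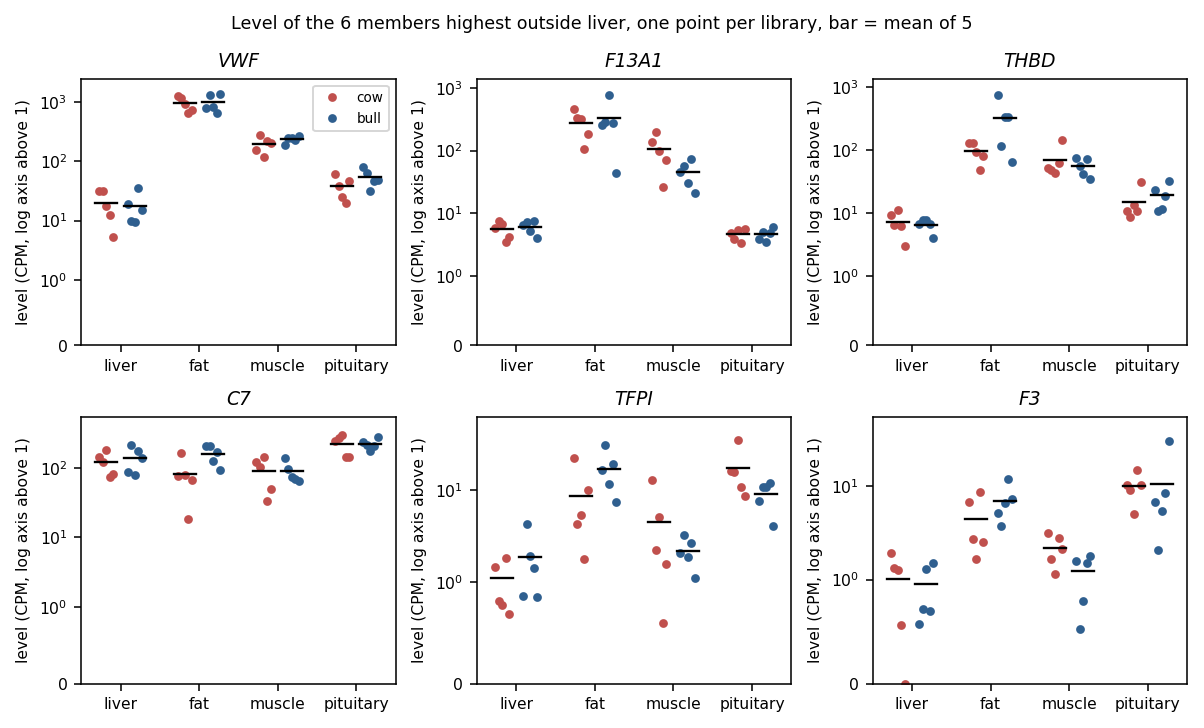
Level (CPM, log axis above 1 CPM) of the 6 members with their highest mean outside liver, by tissue; each point is 1 library, red for cows and blue for bulls, and each bar is the mean of 5 animals. VWF and F13A1 are lowest in liver or pituitary gland and highest in fat, C7 stays within 18.7 to 305 CPM in all tissues, and F3 in pituitary gland has 1 bull at 30.3 CPM.

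Between the other 3 tissues, members were called higher in fat more often than lower. Of the 44 members 21 were called higher in fat than in muscle (23.8% of all tested genes) and 0 lower (19.1%), also 0 at an unadjusted p under 0.05 and 0 in DESeq2. The 21 were C1QA, C1QB, C1QC, C1R, C1S, C2, C3, C4A, C6, C8G, CFB, CFD, F12, F13A1, F3, FGG, KLKB1, PROS1, TFPI, THBD and VWF. Of these, KLKB1 and F12 had only 0 to 3 and 0 to 2 reads per muscle library. Against pituitary gland 27 were called higher in fat (22.7%) and 2 lower (24.3%), F2 and MASP2. The 27 again included the C1q chains, C1R, C1S, C2, C4A, C3, CFB and CFD. They also held MBL2, C8A, C8B, HRG, KNG1 and PLG, which were among the 12 within 2-fold of ALB in all 3 tissues. ALB itself had a log2 fold change of 1.08 for fat over pituitary gland (quasi-likelihood adjusted p = 0.0249), and its part in these calls was not tested. MBL2, C8A, C8B, HRG and F11, also among the 27, averaged at most 0.627 CPM in both tissues. Between muscle and pituitary gland 18 were called higher in muscle (22.6%) and 7 lower (25.2%), the latter being C7, CFI, F12, F2, F3, MASP2 and TFPI. Among the 18 higher in muscle, C8A, C8B, C9, CPB2, FGA, FGB, HRG, KNG1 and PLG were among the 12 within 2-fold of ALB in all 3 tissues. The median log2 fold change was 1.10 for fat over muscle, 1.31 for fat over pituitary gland and 0.61 for muscle over pituitary gland, beside 0.13, -0.02 and -0.03 over all tested genes.

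The tissues come from the same animals, and with the animal in place of sex in the model 4 members rather than 2 were lower in fat than in pituitary gland. Those added were C7 and PROC, PROC at -1.16 (adjusted p = 0.0369). In muscle over pituitary gland that model added PROC (-1.38) and C2 (-1.01) to the members lower in muscle and dropped CFD (0.98) from those higher.

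The spread of the members between animals differed by tissue. Among members with a mean of at least 10 CPM, the median coefficient of variation over 10 animals was 26.3% in liver (40 members), 59.1% in fat (21 members), 51.7% in muscle (19 members) and 33.8% in pituitary gland (17 members). Over all genes at that level it was 29.7%, 42.1%, 32.4% and 22.8% in the same order of tissues. C2 had the lowest value in liver, 8.38%, and C8G in fat the highest of any tissue, 127%.

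The widest range in liver was that of VWF, 5.195 to 35.8 CPM, median 16.6, with a ratio of highest to lowest of 6.89. HRG had 170.2 to 1042 CPM, median 766, with a ratio of 6.12, and CFD 35.1 to 210.5 CPM, median 101, with a ratio of 5.99. For HRG the low animals were cows 1 and 2 and bulls 1 and 2, at 307, 411, 339.8 and 170.2 CPM, and the other 6 libraries had 766 to 1042 CPM.

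Sex was tested in each tissue with edgeR's likelihood ratio test and sex as the only term (M1, 5 bulls against 5 cows), and over the 4 tissues with sex and tissue (M2, 40 libraries). Fold changes are bulls over cows. Only 1 member was called in a single tissue, C4A in pituitary gland, and only 1 in M2, MASP2. Of the 44 members, liver gave 0 calls (0.175% of all tested genes), fat 0 (0.114%), muscle 0 (0.517%), pituitary gland 1 (0.745%) and M2 1 (1.69%). At an unadjusted p under 0.05 the counts were 0 members for liver (7.45% of all tested genes), 4 for fat (6.88%), 13 for muscle (11%), 5 for pituitary gland (9.27%) and 2 for M2 (16.7%). With the quasi-likelihood test 0 members were called in any single tissue, at an unadjusted p under 0.05 in 0, 4, 12 and 5 of the 44 in liver, fat, muscle and pituitary gland, and 1 in M2, MASP2. DESeq2 called 0 members in liver, 0 in fat, 1 in muscle (C1R), 1 in pituitary gland (C4A) and 1 in M2 (MASP2). The DESeq2 counts and the unadjusted quasi-likelihood counts are not set against the share of all tested genes.

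**Figure D4:**
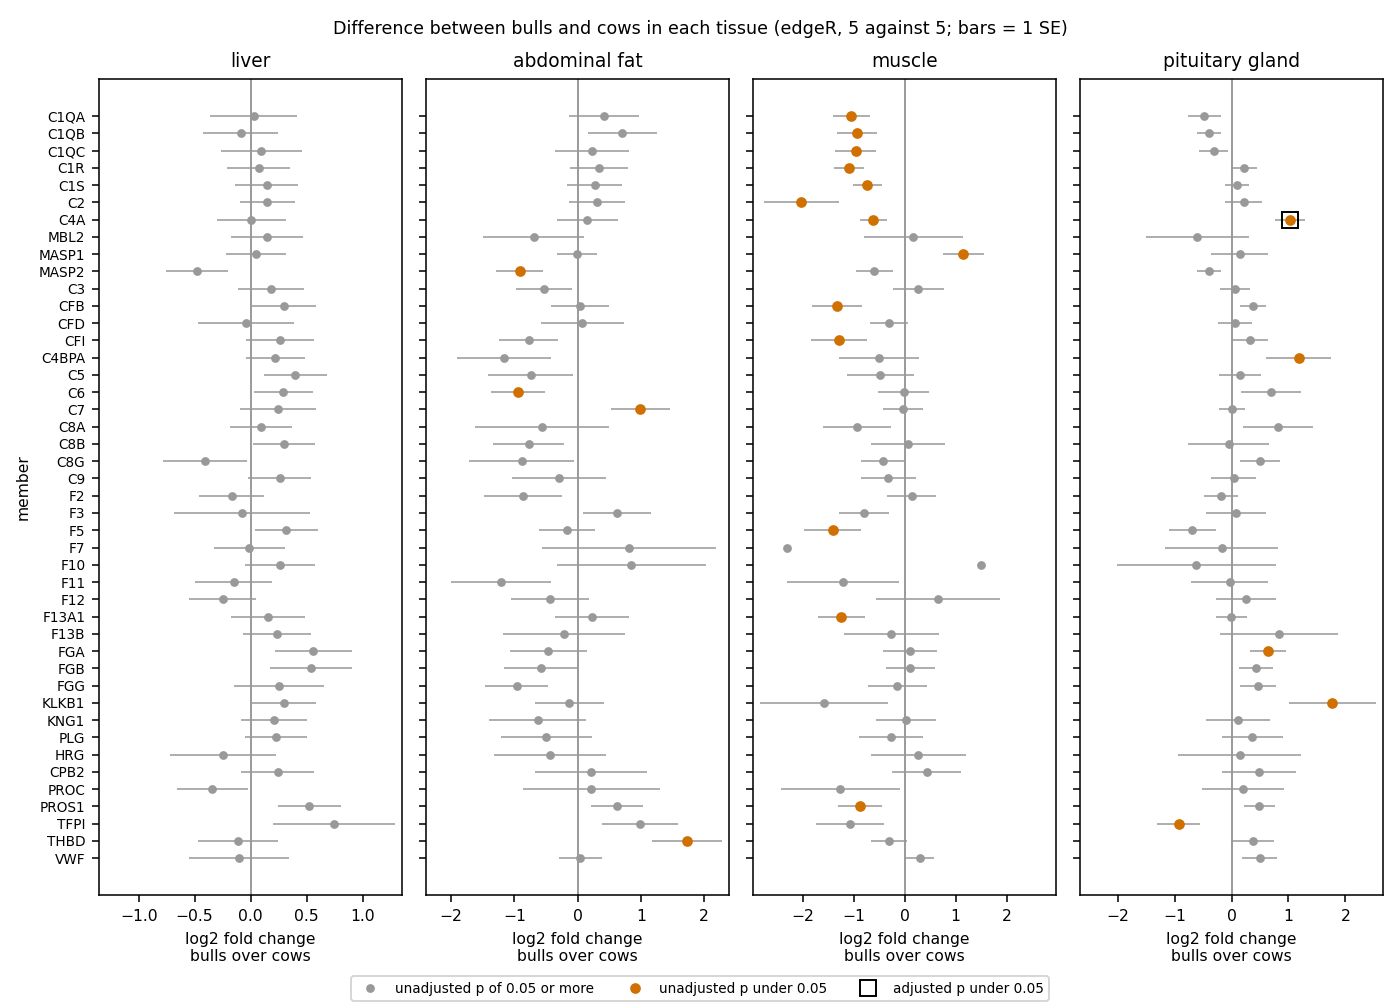
Log2 fold change of bulls over cows for each of the 44 members in liver, abdominal fat, muscle and pituitary gland (edgeR, 5 against 5 animals, bars 1 SE; horizontal scales differ between panels; F7 and F10 in muscle, with at most 3 reads in any library, have no bar). Orange points have an unadjusted p under 0.05 and the square marks an adjusted p under 0.05, C4A in pituitary gland; in muscle 12 of the 13 orange points lie below 0.

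In liver, the members summed to 23.0 ± 6.31% of the TMM-adjusted library size in cows and 28.8 ± 4.09% in bulls (n = 5 each, two-sided exact permutation p = 0.119, adjusted over 4 tissues 0.238). In each tissue the sexes were compared on this measure only, and the shares of reads counted on genes were not tested. Without the library labelled bull 3 the bulls averaged 28.8 ± 4.73% (n = 4, exact permutation p = 0.151). The members with the smallest p in liver were PROS1 and MASP2. PROS1, the cofactor of protein C, was at 587, 491, 684, 756 and 826 CPM in cows 1 to 5 and 947, 1166, 902, 992 and 737 CPM in the libraries labelled bulls 1 to 5. The libraries labelled bulls 1 to 4 lay above every cow, and bull 5 lay within the range of the cows. Bull 3 among them is the library whose XIST and Y-linked reads went against its label. PROS1 had a log2 fold change of 0.52 (SE 0.28), with an adjusted p of 0.719, and 0.53 (adjusted p = 0.861) without the library labelled bull 3. Without that library 0 members were called in liver as well.

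In fat, the members summed to 0.482 ± 0.235% of the TMM-adjusted library size in cows and 0.561 ± 0.116% in bulls (exact permutation p = 0.508, adjusted 0.508). THBD was at 128, 129, 94.0, 48.9 and 81.9 CPM in the cows and 757, 116, 342, 332 and 65.2 CPM in the bulls. Bulls 1, 3 and 4 were above every cow, while bulls 2 and 5 lay within the range of the cows. Bulls over cows came to 1.74 (SE 0.55) on the log2 scale with an adjusted p of 0.358, and without the fat library of bull 5 it was 1.999 with an adjusted p of 0.0394, which is called. Without bull 1, the highest animal, it was 1.15 with an adjusted p of 0.883, and 1 of the 10 fits that left out 1 animal passed the threshold. The other members with an unadjusted p under 0.05 in fat were MASP2 (-0.92, SE 0.37), C6 (-0.94, SE 0.43) and C7 (0.99, SE 0.47), with adjusted p of 0.581, 0.661 and 0.691. Without the fat library of bull 5 MASP2 in fat was -0.87 (edgeR adjusted p = 0.555). The 6 fibroblast markers summed to 8743 to 17630.2 CPM in cow fat and 11792 to 46047 in bull fat, and the 7 hepatocyte markers to 196 to 1875 and 68.7 to 507 CPM. Their part in the member values was not tested.

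In muscle most members with a small unadjusted p had lower values in bulls, the C1 chains and proteases among them, but 0 passed the adjusted threshold. The members summed to 0.126 ± 0.0287% of the TMM-adjusted library size in cow muscle and 0.0994 ± 0.0121% in bull muscle (exact permutation p = 0.0794, adjusted 0.238). Of the 44 members 31 had a fold change below 0, with a median log2 fold change of -0.44 beside -0.04 over all tested genes. The 13 members with an unadjusted p under 0.05 were C1QA, C1QB, C1QC, C1R, C1S, C2, C4A, CFB, CFI, F5, F13A1 and PROS1 with lower values in bulls, and MASP1 with higher values. C1R was at 130.4, 178, 124, 72.4 and 172 CPM in the cows and 61.1, 49.2, 56.9, 90.3 and 57.2 CPM in the bulls. Cow 4 lay below bull 4, and the other 4 cows lay above each bull. C1R had a log2 fold change of -1.09 (SE 0.30), with an adjusted p of 0.0549 in edgeR's likelihood ratio test, 0.0403 in DESeq2 and 0.296 in the quasi-likelihood test.

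The other chains and proteases of C1 in muscle had log2 fold changes of -1.04 (SE 0.36) for C1QA, -0.93 (SE 0.40) for C1QB, -0.96 (SE 0.40) for C1QC and -0.73 (SE 0.29) for C1S, with adjusted p of 0.191, 0.320, 0.298 and 0.264. C2 averaged 11.7 ± 9.74 CPM in cows and 2.88 ± 2.35 CPM in bulls (n = 5 each), C4A 112 ± 31.4 and 73.2 ± 8.13 CPM, CFB 25.8 ± 22.5 and 10.1 ± 4.48 CPM and F13A1 107 ± 66.6 and 45.5 ± 20.8 CPM, and each pair of groups overlapped. MASP1 had the other sign, at 21.7, 29.0, 39.9, 59.3 and 27.3 CPM in the cows and 34.4, 44.2, 124, 117 and 67.4 CPM in the bulls, with a log2 fold change of 1.15 (SE 0.40) and an adjusted p of 0.189. Bulls 3, 4 and 5 lay above each cow.

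These muscle values depended on cow 4, the cow with the lowest C1R and highest MASP1 level. Without cow 4, 8 members were called among 553 called genes in all: C1QA, C1QB, C1R, C1S, C2, CFB and F13A1 lower in bulls and MASP1 higher. C1R then had a log2 fold change of -1.24 (adjusted p = 5.17e-04) and MASP1 1.41 (adjusted p = 0.0169). Without bull 4, C1R alone was called (adjusted p = 0.0368). Macrophage markers moved with the same contrast: 6 of 6 measured were lower in bulls, 5 of them at an unadjusted p under 0.05 and 1, CD14, at an adjusted p of 0.0233, and their sum was 216 to 365 CPM in cows and 59.5 to 243 in bulls. The 6 fibroblast markers were also lower in bulls, 1 at an unadjusted p under 0.05, with sums of 3101 to 9594 CPM in cows and 2648 to 6049.6 in bulls. The part of either cell type in the member values was not tested.

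In pituitary gland, C4A, the single member called there, was higher in bulls. The members summed to 0.0837 ± 0.00816% of the TMM-adjusted library size in cows and 0.0928 ± 0.0166% in bulls (exact permutation p = 0.302, adjusted 0.402). C4A was at 59.5, 76.2, 51.5, 76.7 and 94.8 CPM in cows 1 to 5 and at 102, 204, 107, 105 and 216 CPM in bulls 1 to 5. Each bull lay above each cow, and bulls 2 and 5 lay well above the other bulls. Bulls over cows came to 1.03 (SE 0.26) on the log2 scale, with an adjusted p of 0.0240 in edgeR's likelihood ratio test, 0.0265 in DESeq2 and 0.224 in the quasi-likelihood test. The call was lost without bull 2 (adjusted p = 0.0867), bull 5 (0.0783), cow 1 (0.126), cow 2 (0.0814) or cow 3 (0.107), with log2 fold changes of 0.85 to 1.15 over the 10 fits that left out 1 animal.

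In muscle the C4A difference had the other sign, with a log2 fold change of -0.61 (SE 0.27), and in liver and fat it was 0.01 (SE 0.31) and 0.16 (SE 0.48), none of these called. The interaction of sex and tissue for C4A had an adjusted p of 0.311. Beside C4A in pituitary gland, the 6 fibroblast markers were higher in bulls, 3 at an unadjusted p under 0.05 and 1, COL1A1, at an adjusted p of 0.0345, with sums of 493 to 713 CPM in cows and 677 to 1655 in bulls, while the macrophage markers summed to 99.1 to 215 and 72.1 to 248. The 7 pituitary markers were higher in bulls too, 4 at an unadjusted p under 0.05 and 1, CGA, at an adjusted p of 0.0125, with sums of 82770.5 to 265777 CPM in cows and 143841 to 286052 in bulls. Of the 5 skeletal muscle markers 4 were higher in bulls at an unadjusted p under 0.05 (sums of 10.4 to 74.9 CPM in cows and 44.9 to 108 in bulls), and of the 7 hepatocyte markers 2 were (sums of 47.5 to 76.6 CPM in cows and 69.6 to 201 in bulls). The part of these cells in the C4A level was not tested.

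The other pituitary members with an unadjusted p under 0.05 were not called. KLKB1 had 0 to 9 reads per library, with 0.126, 0, 0, 0.156 and 0.137 CPM in the cows and 0.242, 0.454, 0.382, 0.264 and 0.130 CPM in the bulls, with overlap between the sexes and an adjusted p of 0.295. TFPI averaged 17.4 ± 10.4 CPM in cows and 9.11 ± 3.26 CPM in bulls (log2 fold change -0.92, SE 0.38, adjusted p = 0.353), and cow 3 was far above the rest at 35.2 CPM. C4BPA (1.18, SE 0.57) and FGA (0.64, SE 0.32) had adjusted p of 0.482 and 0.517.

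MASP2 was the single member called over the 4 tissues, with a log2 fold change in M2 of -0.60 (SE 0.14) and an adjusted p of 0.00704. In liver it was at 654, 798, 648, 403 and 440.5 CPM in the cows and 430.1, 412, 308, 447 and 468 CPM in the libraries labelled bulls, so that cows 1, 2 and 3 lay above each bull and cows 4 and 5 within their range. The lowest value, 308 CPM, was that of the library labelled bull 3, and without it cow 4 lay below each bull. In fat it was at 28.2, 12.8, 14.3, 19.1 and 27.5 CPM in the cows and 8.96, 8.86, 13.9, 12.7 and 9.66 CPM in the bulls. Cows 1, 3, 4 and 5 lay above each bull in fat, and bull 3 lay above cow 2.

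In muscle MASP2 was at 27.4, 22.0, 34.7, 14.0 and 11.6 CPM in the cows and 15.8, 13.1, 7.93, 16.4 and 19.9 CPM in the bulls. In pituitary gland it was at 57.4, 54.9, 68.3, 40.3 and 41.8 CPM in the cows and 36.1, 49.4, 40.02, 26.4 and 47.5 CPM in the bulls. The ranges overlapped in both tissues, and cows 1, 2 and 3 lay above each bull in each of them. The mean of the bulls was thus lower in each tissue, with log2 fold changes of -0.48 (SE 0.28) in liver, -0.92 (SE 0.37) in fat, -0.59 (SE 0.37) in muscle and -0.40 (SE 0.22) in pituitary gland, none of them called alone. The liver value was -0.41 (edgeR adjusted p = 1) without the library labelled bull 3.

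The 40 libraries of M2 come from 10 animals and are not independent. With the animal as a random block in limma voom the MASP2 log2 fold change was -0.54 with an adjusted p of 0.239, and 0 members were called. The adjusted p was 0.0274 in the quasi-likelihood test, 0.00546 in DESeq2, 0.0135 without the liver library labelled bull 3 (log2 fold change -0.58), 0.0145 without the fat library of bull 5 (log2 fold change -0.58) and 0.0711 without cow 1, which ends the call. F5 was the other member with an unadjusted p under 0.05 in M2, at -0.45 (SE 0.22) and an adjusted p of 0.276.

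**Figure D5:**
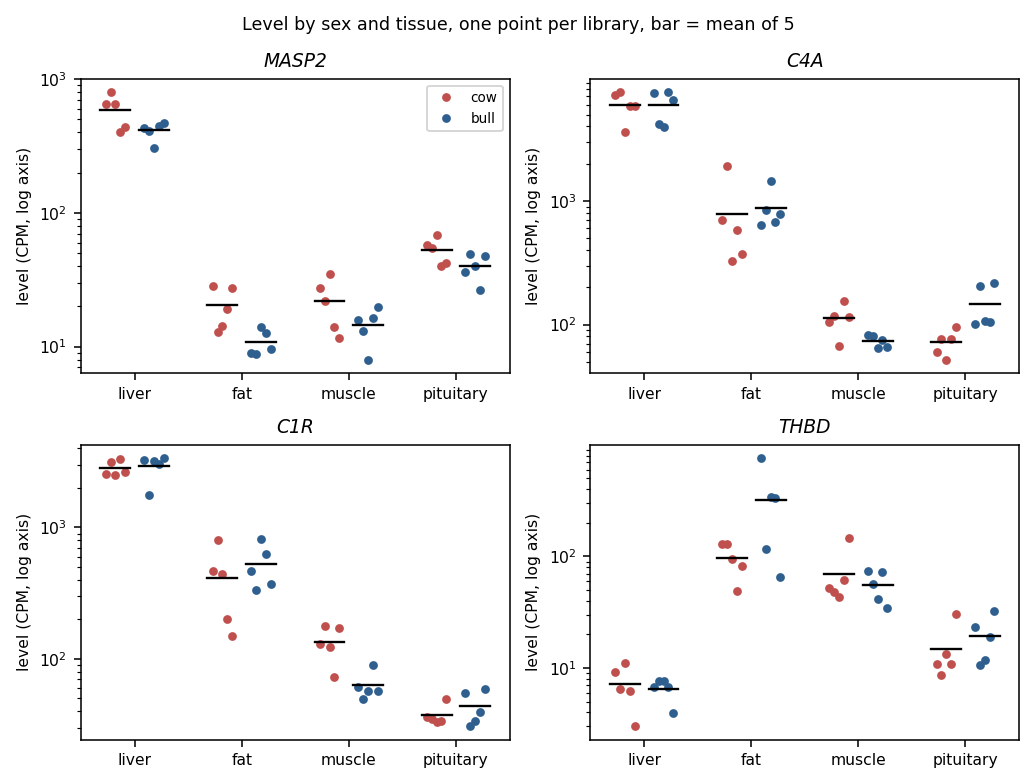
Level (CPM, log axis) of MASP2, C4A, C1R and THBD in the 4 tissues; each point is 1 library, red for cows and blue for bulls as labelled, and each bar is the mean of 5 animals. The bull mean of MASP2 is lower in each tissue, C4A separates the sexes in pituitary gland (51.5 to 94.8 CPM in cows, 102 to 216 in bulls), and the sexes overlap for C1R in muscle and THBD in fat.

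Whether the sex difference of a member varied between tissues was tested with the interaction of sex and tissue. At an adjusted p under 0.05, 0 of 44 members were called (0.335% of all tested genes), and at an unadjusted p under 0.05, 13 were (8.58%). These 13 were C1QB, C1R, C2, C4A, C4BPA, C6, CFB, CFI, F5, KLKB1, PROS1, TFPI and THBD, the lowest adjusted p being 0.156 for C2. Without the liver library labelled bull 3 or without the fat library of bull 5 the count was 0 as well, and without cow 4, C2, C6 and CFI were called. The calls without cow 4 are not set against the share of all tested genes. The quasi-likelihood test called 0 genes of all tested for the interaction, with an unadjusted p of 0.00806 for C2.

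Of 52 further genes of the same pathways, chosen by function, 45 were measured, and 25 of them had their highest mean in liver, 16 in fat and 3 in muscle, and 1 was highest in pituitary gland. Of the 45, 20 were called higher in liver than in fat and 13 lower, 27 higher and 6 lower against muscle, and 32 higher and 3 lower against pituitary gland. Of these genes 18 were called higher and 2 lower in fat than in muscle, 28 higher and 4 lower in fat than in pituitary gland, and 18 higher and 7 lower in muscle than in pituitary gland, read against the shares of all tested genes given above. Named here by mean CPM, which is not corrected for length, are 3 of these genes per tissue. In liver they were VTN (vitronectin, 4561 ± 1278 CPM), SERPING1 (the C1 inhibitor, 4529 ± 875 CPM) and CLU (clusterin, 4145 ± 637 CPM). In fat CLU, A2M (alpha-2-macroglobulin) and SERPING1 averaged 3713 ± 1606, 3224 ± 1897 and 964 ± 423 CPM.

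In muscle A2M, CLU and THBS1 (thrombospondin) averaged 886 ± 429, 394 ± 88.3 and 379 ± 408 CPM. In pituitary gland CLU, THBS1 and the complement regulator CD46 averaged 1748 ± 492, 226 ± 53.2 and 174 ± 31.3 CPM. Between the sexes 0 of the 45 were called in liver (0.175% of all tested genes), fat (0.114%), muscle (0.517%) and M2 (1.69%). In pituitary gland, where 0.745% of all tested genes were called, 1 was, CR2, the complement receptor of B cells and follicular dendritic cells. It was at 3.51 to 15.9 CPM in cows and 0.573 to 3.31 CPM in bulls, with no overlap, a log2 fold change of -1.91 (SE 0.50) and an adjusted p of 0.0352 in edgeR's likelihood ratio test and 0.246 in its quasi-likelihood test.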

How the data were processed

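Adapters were trimmed with Trimmomatic and paired-end reads mapped to UCSC bosTau7 with Bowtie2 and TopHat2. The authors deposited 1 table of raw HTSeq counts of uniquely mapped reads per sample, without normalization or filtering. The counting mode and the use of strand are not given in the sources used here, so reads of overlapping or antisense genes cannot be told apart. A row without a gene name (0.114 to 2.69% of counted reads) was left out. The 13148 genes with a read in any library entered edgeR 4.0.16 (R 4.3.3), with TMM factors, a prior count of 0.125 and Benjamini-Hochberg adjustment. Sex was tested by likelihood ratio in M1, M2 and the interaction of sex and tissue, tissues by the quasi-likelihood test. DESeq2 1.42.0 and limma 3.58.1 served as alternatives. Steps were tested on simulated counts. Figures used matplotlib 3.10.9.

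Groups came from the labels. The tissues of an animal were paired by the replicate number of the samples, taken as the animal number, and this pairing is an assumption. Over 60 same-animal pairs of libraries the deviations from group means correlated from -0.453 to 0.571 (median 0.199), 36 over 0.1. In 23 of the 60 pairs the own animal was the best match. A cow and a bull of the same number are not paired. No 2 libraries were identical. The closest were the livers of cow 4 and of the library labelled bull 3 (chi-square per gene 15.0). The next closest liver pair, cows 1 and 2, had 43.9. Whether the livers of cow 4 and of the library labelled bull 3 came from 1 animal was not tested. The liver libraries may thus come from fewer than 10 animals. The floor of 3 reads covers counting error only, while the SE of a fold change also includes the spread between libraries estimated by the fit. The members, the 52 pathway genes and the markers were chosen with earlier results of these data known. Every member is accounted for. Values by library are given for members called between the sexes, those not highest in liver, the 6 highest in liver, the 2 with the smallest p between the sexes in each tissue, and the 3 with the widest range in liver at a mean of at least 10 CPM. The comparison with ALB, the C8 and C1R proportions and the neighbouring genes were added after the values were seen. A planned count of promoter motifs was not run.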

Additional observations from a re-analysis of the deposited data

Results flagged for a closer look

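Groups of 5 animals were searched for a single library far from the other 4 (gap to the nearest over the whole range above 0.71), in 56 groups of values by tissue and sex. Chance flags about 1 in 20 such groups if values are normal, which was not tested for these values. Some groups were also chosen for a wide range or a small p between the sexes, so their chance rate is not known. Of the 56 groups, 3 were flagged. F3 in pituitary gland had 30.3 CPM in bull 5, against 2.07 to 8.37 CPM in the other 4 bulls. TFPI in pituitary gland had 35.2 CPM in cow 3, against 8.68 to 16.3 CPM in the other 4 cows. The members summed to 0.767% of the TMM-adjusted library size in the fat of bull 3, against 0.482 to 0.534% in the other 4 bulls.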

How the results depend on the processing

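Library number (5 per sex and tissue), the unstated counting mode, near-identical copies such as those of C4 and, outside liver, the few reads on many members limit these results. With RLE factors, with edgeR's filterByExpr, with the likelihood ratio test between tissues, with DESeq2 between tissues and without the liver library labelled bull 3, no count of members between tissues moved by more than 1.5 times, and no setting turned the direction of a named member. The filterByExpr filter was applied over all libraries, so members high in liver passed it whatever their reads elsewhere. It therefore could not test calls between the other tissues for members with few reads there. With the animal as a replicate block, 4 members in place of 2 were lower in fat than in pituitary gland, and the other counts between tissues moved by less than 1.5 times. With no minimum fold 4 members were lower in fat than in pituitary gland as well, and at 4-fold or more 0 were, with 2 members lower in liver than in pituitary gland, 4 higher and 1 lower in muscle than in pituitary gland. The TFPI call between liver and muscle was lost with the block and with RLE factors. The quasi-likelihood test left 0 members called in pituitary gland, DESeq2 called 1 in muscle (C1R), voom with the animal as random block left 0 in M2, and without the fat library of bull 5, 1 member (THBD) was called in fat. On raw library sizes the members took 19.8% of liver, 0.669% of fat, 0.0849% of muscle and 0.1246% of pituitary reads. Muscle then lay below pituitary gland, the other order from that on TMM-adjusted sizes. Leaving out 1 animal at a time gave 0 to 1 members lower in fat than in muscle, 2 to 4 lower in fat than in pituitary gland, 0 to 1 called by sex in fat, 0 to 8 in muscle, 0 to 1 in pituitary gland, 0 to 1 in M2 and 0 to 3 for the interaction. The cause of these shifts was not tested. The promoter motif count was not run, since no promoter sequences were at hand.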
